A study of Mus musculus with 12 samples.

Results

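The immediate early response genes Ier2, Ier3, Ier5 and Ier5l were examined in hippocampal slices after long-term potentiation (LTP). The members were chosen by name: the 4 symbols were looked up in GENCODE M21 for the Ensembl IDs of the deposited count tables, which gave 4 genes of 41091 IDs. Total RNA had been sequenced from acute hippocampal slices of wild-type male C57BL/6 mice aged 2 to 3 months. Slices of the 1 hr LTP and 3 hr LTP groups were perfused for 5 min with forskolin at 50 uM, which activates adenylyl cyclase and so raises cAMP, then for 5 more min with forskolin plus 30 mM KCl and 10 mM calcium, and were frozen 1 hr or 3 hr later. Slices of the 1 hr control and 3 hr control groups received vehicle (0.2% DMSO) for 10 min and were frozen at the same times. Each group had 3 libraries, and an animal supplied 1 LTP and 1 control library at a time point. Whether the time points shared animals is not stated in the sources used here. Libraries were made only from slices in which RT-qPCR had shown a rise of Arc mRNA and of the short Homer1 isoform after induction. The long Homer1 isoform and Hprt had to be unchanged. The LTP groups thus stand for slices that responded by these measures.

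Immediate early genes are transcribed within minutes of a stimulus without the need for new protein, through transcription factors that are already present in the cell, such as SRF, CREB and NF-kB. In neurons this programme follows synaptic activity, calcium entry and cAMP, and its best known members encode transcription factors and synaptic proteins. Ier2, Ier3 and Ier5 were named for their rapid induction by growth factors and serum rather than for a shared function. Ier5l carries the name of the related Ier5. Ier2, Ier5 and Ier5l encode related nuclear proteins, of which Ier2 and Ier5 bind the phosphatase PP2A, and Ier5 activates the heat shock factor HSF1 in this way. Ier3 encodes an unrelated protein that modulates ERK signalling and cell survival and is a known target of NF-kB.

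The members have few exons and vary in length around the median protein-coding transcript of 2771 bases. On GRCm38, Ier2 (ENSMUSG00000053560.4) lies on chromosome 8 from 84661331 to 84662852 on the minus strand and has 1 exon of 1522 bases. Ier3 (ENSMUSG00000003541.6) lies on chromosome 17 from 35821684 to 35822923 on the plus strand, with 2 exons of 1131 bases together. Ier5 (ENSMUSG00000056708.5) lies on chromosome 1 from 155096361 to 155099636 on the minus strand and Ier5l (ENSMUSG00000089762.3) on chromosome 2 from 30471537 to 30474219 on the minus strand, each as 1 exon, of 3276 and 2683 bases. Genes of a single exon made up 4.81% of 21028 annotated protein-coding genes with a 3′UTR. Each member had 1 annotated transcript, and 0.0% of its exonic bases overlapped another gene on either strand. GC content was 60.9% in Ier2, 54.4% in Ier3, 52.3% in Ier5 and 63.8% in Ier5l.

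The 3′UTRs differed in AU-rich pentamers, which are shown because such elements are known to shorten the life of many early mRNAs. ATTTA was searched on the transcript strand only. Ier3 held 5 matches in its 3′UTR of 613 bases, Ier5 2 in 2143 bases, Ier5l 3 in 1254 bases and Ier2 0 in 755 bases, and 64.6% of the annotated 3′UTRs held at least 1. The longer element TTATTTATT, held by 7.57% of them, was found in 0 of the 4. The pentamers of Ier3 fall into a pair, a single match and a second pair, here with the pentamer in capitals and the distance in bases from the start of the 3′UTR.
Ier3 at 183: tgtctaattaatATTTAtgtatttatgtat
Ier3 at 191: taatatttatgtATTTAtgtatatcctcct
Ier3 at 233: ggtgtatgtaatATTTAttctaacttatgc
Ier3 at 288: tgtaacacagatATTTAttacgatttatag
Ier3 at 298: atatttattacgATTTAtagggtcggtaag
The windows at 183 and 191 overlap, as do those at 288 and 298. For comparison, 1 window is shown from each of the Ier5 and Ier5l 3′UTRs, where the pentamers lie farther apart.
Ier5 at 1739: acagccaaggcaATTTAaagagaccgtttt
Ier5l at 1225: ttatttgtttaaATTTAtaatcttaataaa

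RefSeq promoter windows (GRCm38.p6), from 250 bases before to 50 bases after the start, were used for 3 members, Ier3, Ier5 and Ier5l. The promoter of Ier2 was not analysed here. Both strands were searched. An NF-kB match, found in 8.46% of 32851 windows, was present in Ier3, and CCAAT, found in 37.4%, was present in all 3 windows. The matches are printed on the strand of the gene, with the motif in capitals, so that a match on the opposite strand reads as the reverse complement (ATTGG for CCAAT).
Ier3 NF-kB match on the opposite strand, chr17:35821611-35821640: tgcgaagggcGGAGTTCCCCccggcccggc
Ier3 CCAAT, chr17:35821526-35821555: cctagagaataaCCAATcaaggctccgcct
Ier5 CCAAT on the opposite strand, chr1:155099665-155099694: cggcgctttgtgATTGGcgttcgaggagca
Ier5l CCAAT on the opposite strand, chr2:30474272-30474301: ctacacgcttctATTGGctaatctacagtg
Counted from the start in RefSeq, which for Ier3 and Ier5l is not the GENCODE start given above, the NF-kB match of Ier3 began at -92, and the CCAAT matches shown began at -175 in Ier3, -46 in Ier5 and -90 in Ier5l. No exact match was found in the 3 windows for the cAMP response element TGACGTCA (1.79% of all windows), its core TGACG, which lies within it (20.8%), the AP-1 site TGAGTCA (5.2%), the SRF site known as the CArG box (1.63%), the heat shock element (0.603%), the EGR site GCGGGGGCG or GCGTGGGCG (3.47%) or TATAAA (13.6%). These letters being absent says nothing of sites elsewhere, and CCAAT was added to the search after the windows had been seen.

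Library totals ran from 37118382 to 50815001 counts. CPM are counts scaled to library size, with TMM factors unless stated. A floor of 3 counts, scaled to the totals without these factors, equalled 0.059 to 0.0808 CPM, far below every member. 1 hr control replicate 2, which the study had set aside as an outlier of its clustering, stood apart here too, with a chi-square per degree of freedom of 47 and 63.3 against the other 1 hr controls, where those differed from each other by 10.2. It was left out of all fits, and values with it are given where they matter. 3 hr LTP replicate 3 lay as far from its group, at 44 and 85.6 against the other 3 hr LTP libraries, which differed from each other by 24.1. It was kept in the fits, and no call of a member changed without it. All 6 neuronal and 7 pyramidal cell markers were above 1 CPM, as were those of astrocytes, oligodendrocytes, microglia, endothelial and mural cells. Markers of dentate granule cells were not absent, at 162 to 293 CPM summed, although the dentate gyrus had been trimmed. In such bulk samples, fewer cells of a type and less RNA per cell cannot be told apart.

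Ier2 was higher after LTP at both times. It was at 8.13 and 10.5 CPM in 1 hr control replicates 1 and 3, with 11.2 in the set-aside replicate 2, and at 20.6, 17.4 and 25.7 CPM in the 1 hr LTP libraries. Every 1 hr LTP library was above every 1 hr control. The 3 hr controls were at 14.3, 17.7 and 15.5 CPM and the 3 hr LTP libraries at 24.9, 22.1 and 31.2, again with no overlap.

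Ier3 was at 16.7 and 17.4 CPM in the fitted 1 hr controls, with 20.6 in the set-aside library, and at 21.7, 21.9 and 21.7 CPM in the 1 hr LTP libraries. The 1 hr LTP values were close to each other (SD 0.126 CPM), and the set-aside control was the nearest to them. At 3 hr the controls were at 29.3, 39.6 and 38.4 CPM and the LTP libraries at 42, 40.6 and 45.2, so that the groups were separated by the gap between 39.6 and 40.6 CPM alone.

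Ier5 was at 58.2 and 60.3 CPM in the fitted 1 hr controls, with 62.4 in the set-aside library, and at 77.1, 67.5 and 61.4 CPM in the 1 hr LTP libraries. The fitted groups did not overlap, but the set-aside control was above 1 hr LTP replicate 3. The 3 hr controls were at 100, 98.1 and 105 CPM and the 3 hr LTP libraries at 102, 107 and 95.3, fully interleaved.

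Ier5l, the least abundant member, was at 4.65 and 4.57 CPM in the fitted 1 hr controls, with 6.72 in the set-aside library, and at 6.07, 4.75 and 4.56 CPM in the 1 hr LTP libraries. The set-aside control was the highest of the 6 libraries at 1 hr. The 3 hr controls were at 9, 10.3 and 11.7 CPM and the 3 hr LTP libraries at 9.56, 6.55 and 8.55. For Ier5l the groups overlapped at both times.

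**Figure D1:**
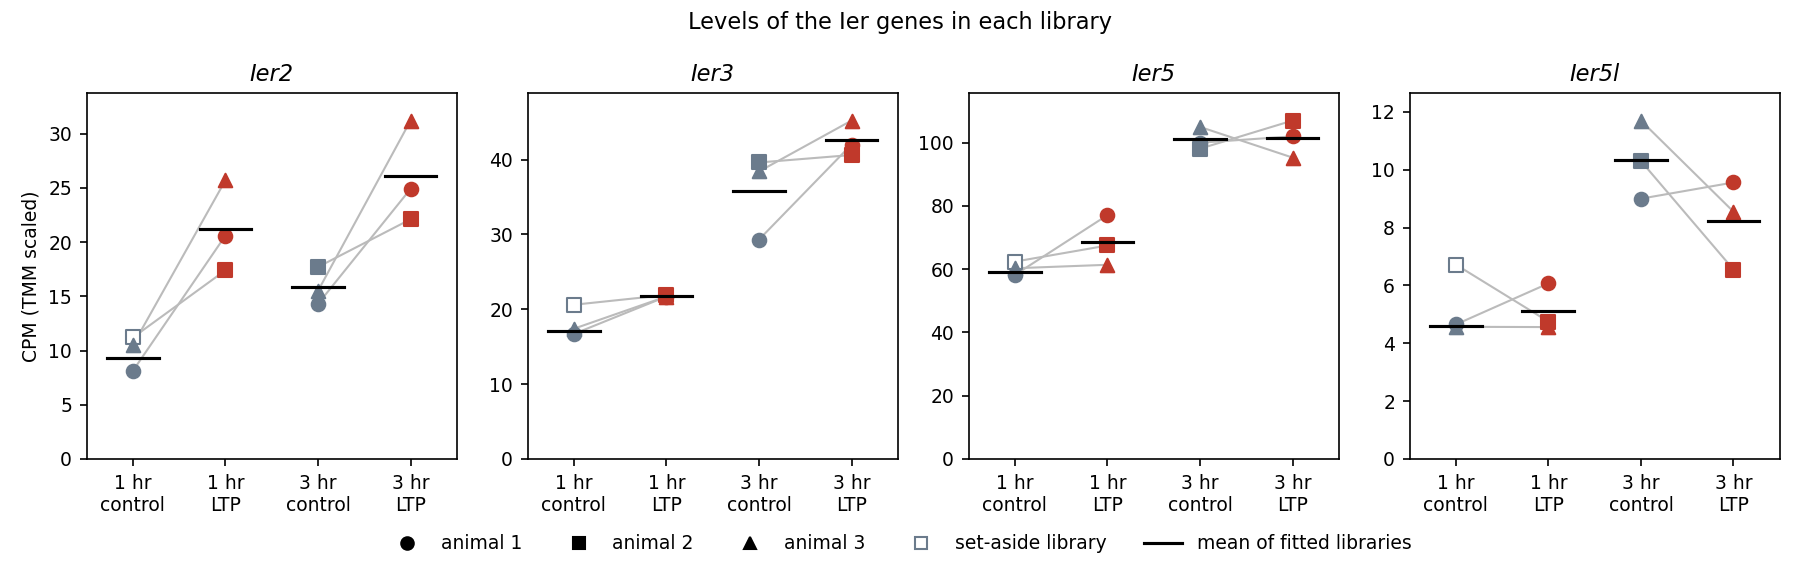
CPM (TMM scaled, linear axis from 0) of Ier2, Ier3, Ier5 and Ier5l in each library of the 4 groups, with a symbol for each animal number, grey lines joining the control and LTP library of an animal at a time point, an open square for the set-aside 1 hr control and black bars for the mean of the fitted libraries. Ier2 is higher in LTP than in control at both times, while Ier3, Ier5 and Ier5l differ mainly between 1 hr and 3 hr.

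To compare levels between genes, CPM were divided by exonic length, although whether the tables count reads over exons or over coding sequence alone is not stated. Ier3 (26.9 CPM per kb, mean of the 11 fitted libraries) and Ier5 (25.9) were highest, Ier2 was at 12.4 and Ier5l at 2.72 CPM per kb. Their percentiles among 18078 genes, for exonic length, were 90.6, 90.1, 78 and 45.4, where the median gene was at 3.43 CPM per kb. In the study, expression was analysed from reads in coding regions. With coding length in place of exonic length, chosen after seeing the data, Ier5 (91.4) came above Ier3 (63), followed by Ier2 (28.4) and Ier5l (5.97 CPM per kb of coding sequence). The order of Ier3 and Ier5 therefore depended on the length used. It also turned with the time point at exonic length, where Ier5 was above Ier3 in the fitted 1 hr controls (18.1 and 15.1 CPM per kb) and below it in the 3 hr LTP group (31 and 37.7 CPM per kb).

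LTP was compared with control at each time point to ask which members responded to induction. A gene was called where edgeR's quasi-likelihood test, with Benjamini-Hochberg adjustment over all genes, gave an adjusted p below 0.1 and the fold change exceeded 1.2. At 1 hr, 1 of the 4 members was called higher, against 0.778% of 17736 genes tested. Ier2 rose 2.29-fold. Its mean was 9.34 ± 1.7 CPM (SD, n = 2) in the controls and 21.2 ± 4.17 CPM (SD, n = 3) after LTP, and the log2 fold change was 1.2 (SE 0.154, adjusted p = 0.000814 in edgeR). By p it was gene 38 of the 17736. The rise was called in all 18 alternatives run, with log2 fold changes from 1.02 to 1.39. With the set-aside control included the log2 fold change was 1.1.

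Ier3 did not pass the test at 1 hr, with a log2 fold change of 0.36 (SE 0.089, edgeR adjusted p = 0.127). Its mean was 17 ± 0.514 CPM (SD, n = 2) in the controls and 21.8 ± 0.126 (SD, n = 3) after LTP. Its call depended on the setting. With the animal as a replicate block the log2 fold change was again 0.36 and the adjusted p 0.0788, which passed. That fit left out the set-aside control, so 1 hr LTP replicate 2 had no partner. Its estimate rested on the animals numbered 1 and 3. With the set-aside control included the log2 fold change was 0.26 with an adjusted p of 0.48 without the block, and 0.27 with 0.759 in the block. It passed in 4 of 18 alternatives, over which the adjusted p ran from 0.0456 to 0.781. Ier5 (log2 0.22, SE 0.0906, edgeR adjusted p = 0.655) and Ier5l (log2 0.16, SE 0.165, adjusted p = 0.94) did not pass in the main test or in any of the 18 alternatives. The Ier5 value was 0.13 without 1 hr LTP replicate 1. For Ier5l the sign turned to -0.05 with the set-aside control included, and the value was 0.02 without 1 hr LTP replicate 1. Among the fitted libraries, the LTP group lay above the control group without overlap for 3 of the 4 members, a pattern shown by 10.5% of all genes tested, and for Ier5 this no longer held with the set-aside library.

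At 3 hr Ier2 was again the 1 member called higher, where 5.07% of 17508 genes were. It rose 1.66-fold (log2 0.58 without 3 hr LTP replicate 3), from 15.8 ± 1.74 to 26.1 ± 4.65 CPM (SD, n = 3 each), which is 0.73 on the log2 scale (SE 0.134, edgeR adjusted p = 0.0248). The call was lost without 3 hr control replicate 1 (log2 0.66, adjusted p = 0.119) and without 3 hr control replicate 3 (log2 0.72, adjusted p = 0.106), and was kept in the other 15 of 17 alternatives, with log2 fold changes from 0.58 to 0.84 over all of them. Ier3 went from 35.8 ± 5.62 to 42.6 ± 2.32 CPM (SD, n = 3 each) and did not pass (log2 0.26, SE 0.114, edgeR adjusted p = 0.236, and log2 0.14 without 3 hr control replicate 1). Ier5 was at 101 CPM in both groups, with SDs of 3.55 and 6.06 (log2 0.02, SE 0.0647, adjusted p = 0.903). Ier5l was at 10.3 ± 1.36 CPM in the 3 hr controls and 8.22 ± 1.53 in the 3 hr LTP group (log2 -0.32, SE 0.152, edgeR adjusted p = 0.286), the only member with a lower mean after LTP. This value was -0.17 both with the offset for GC content and length and when 3 hr LTP replicate 2 was left out, and -0.21 when control replicate 3 of that time was. The groups did not overlap for Ier2 and Ier3, with LTP higher, as for 12.9% of genes.

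The ratio of LTP to control within an animal varied between animals (log2 of CPM plus 0.1). For Ier2 it was 1.33, 0.64 and 1.28 at 1 hr in the order of the animal numbers, while the 3 hr ratios were 0.80, 0.32 and 1.00, positive in 6 of 6. For Ier3 it was 0.38, 0.09 and 0.32 at 1 hr and 0.52, 0.04 and 0.23 at 3 hr, also positive in 6 of 6 but near 0 in the animal numbered 2 at each time. The 1 hr ratio of that number rests on the set-aside control. For Ier5 the ratios were 0.40, 0.11 and 0.03 at 1 hr and 0.02, 0.13 and -0.14 at 3 hr. For Ier5l they were 0.38, -0.49 and -0.003 at 1 hr and 0.09, -0.64 and -0.45 at 3 hr, with both signs at each time.

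A call at both times does not show equal effects, so the difference between the 3 hr and the 1 hr effect was tested in 1 model of the 4 groups. None of the 4 members passed, where 0.0592% of 18584 genes did (11 genes, and 1225 at an unadjusted p under 0.05). The LTP effect on Ier2 was smaller at 3 hr by 0.46 on the log2 scale in the point estimate (log2 -0.46, SE 0.237, edgeR adjusted p = 0.816). The difference was -0.09 for Ier3 (SE 0.15, adjusted p = 0.971), -0.20 for Ier5 (SE 0.115, adjusted p = 0.856) and -0.47 for Ier5l (SE 0.232, adjusted p = 0.779). Over 23 alternatives these values ran from -0.68 to -0.29 for Ier2, -0.24 to 0.002 for Ier3, -0.26 to -0.10 for Ier5 and -0.62 to -0.27 for Ier5l, and none was called. For Ier2 the lowest was without 1 hr control replicate 3 and the highest without 1 hr LTP replicate 3. By DESeq2 too, 0 members passed, and 0 had an unadjusted p under 0.05 in edgeR. These p-values do not show that the effects were equal.

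The controls show the level without induction. All 4 members were higher in the 3 hr than in the 1 hr controls, where 16.1% of 18584 genes were called higher and 16.8% lower. Ier5l rose 2.2-fold (log2 1.14, SE 0.176, edgeR adjusted p = 0.000504) and Ier3 2.06-fold (log2 1.04, SE 0.115, adjusted p = 7.06e-05). Ier5 rose 1.67-fold (log2 0.74, SE 0.0877, adjusted p = 9.06e-05) and Ier2 1.66-fold (log2 0.73, SE 0.182, adjusted p = 0.00858). The groups did not overlap for any of the 4, as for 31.5% of genes tested with the 3 hr group higher. All 4 calls held in each of 20 alternatives, but an offset for GC content and length lowered the difference to 0.50 for Ier5l, 0.45 for Ier2 and 0.62 for Ier5, and raised it to 1.11 for Ier3. With the set-aside control included the differences were 0.67 for Ier2, 0.97 for Ier3, 0.75 for Ier5 and 0.95 for Ier5l.

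Markers of several cell types moved in the same comparison of controls. Of 7 microglial markers 6 were called lower at 3 hr, with a summed level of 282 to 305 CPM in the 1 hr controls and 205 to 235 in the 3 hr controls. Of 6 endothelial and 6 mural markers 4 each were lower, and 3 of 6 oligodendrocyte markers were higher, from 5870 to 7360 CPM up to 7840 to 9500 CPM summed. Of 6 neuronal markers 2 were lower, from 5130 to 5680 CPM down to 4450 to 4620. Of 7 pyramidal cell markers 2 were higher and 1 lower, and of 6 interneuron markers 1 was higher and 1 lower. In the LTP slices, summed microglial markers were at 279 to 304 CPM at 1 hr and 189 to 217 at 3 hr. Endothelial markers were at 99.2 to 105 and 89.6 to 107, and mural markers at 163 to 179 and 137 to 142. Neuronal markers were at 4890 to 5600 and 4170 to 4760, and oligodendrocyte markers at 7120 to 8450 and 7740 to 9600. The control ranges include the set-aside library. Their part in the rise of the Ier genes, in the controls or in the LTP slices, was not tested, and time in the chamber and any difference between the animals or processing of the time points cannot be told apart. Between LTP and control, no marker of these lists was called at 1 hr and 1, a pyramidal cell marker, at 3 hr.

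In the LTP slices 3 of the 4 members were called higher at 3 hr than at 1 hr, where 18.6% of genes were. Ier3 rose 1.93-fold (log2 0.95, SE 0.0998, edgeR adjusted p = 3.08e-05), Ier5l 1.58-fold (log2 0.66, SE 0.154, adjusted p = 0.00473) and Ier5 1.46-fold (log2 0.55, SE 0.0769, adjusted p = 0.000195). Ier2 did not pass (log2 0.28, SE 0.153, adjusted p = 0.176), and its libraries overlapped between the times. With the offset for GC content and length its difference was 0.06, without 3 hr LTP replicate 3 it was 0.13, and without 1 hr LTP replicate 2 it was 0.18. The other 3 members did not overlap, as for 23.6% of genes. The Ier5l difference fell to 0.14 (adjusted p = 0.419) with the offset for GC content and length. Ier2 passed without 1 hr LTP replicate 3 (log2 0.46, adjusted p = 0.0379) and without 3 hr LTP replicate 2 (log2 0.38, adjusted p = 0.051).

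**Figure D2:**
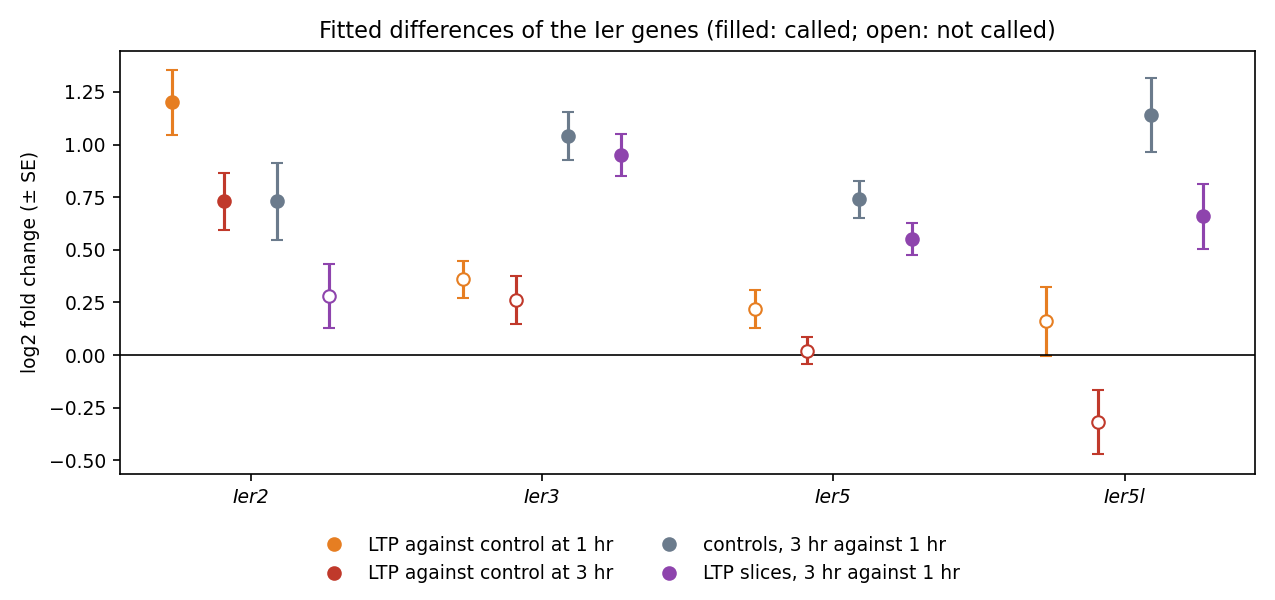
Log2 fold changes (± SE from the edgeR fits) of the 4 members for LTP against control at 1 hr and 3 hr and for 3 hr against 1 hr within the controls and within the LTP slices, filled where called and open where not. Ier2 is filled for both LTP comparisons and open for the LTP slices, and the other 3 members show the reverse.

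The 4 group levels thus came in different orders. For Ier2 the order was 1 hr control, 3 hr control, 1 hr LTP and 3 hr LTP. The 3 hr controls were below the 1 hr LTP group in the fit (log2 -0.45, SE 0.155, edgeR adjusted p = 0.0329, where 19% of genes were called lower), although 17.7 CPM in 3 hr control replicate 2 was above 17.4 CPM in 1 hr LTP replicate 2. The difference between the 1 hr and 3 hr LTP groups was not called in the main test and was called in 3 of 20 alternatives. For Ier3 and Ier5 both 1 hr groups lay below both 3 hr groups. The step from 1 hr LTP to 3 hr control was 0.69 for Ier3 (SE 0.0996, adjusted p = 0.000207) and 0.53 for Ier5 (SE 0.0768, adjusted p = 0.000211), with 17.4% of genes called higher, and the steps within a time point were not called. For Ier5l the order was 1 hr control, 1 hr LTP, 3 hr LTP and 3 hr control, in which only the step between the LTP groups was called. With all 3 of the 1 hr controls their mean was 5.31 CPM, above the 5.13 CPM of the 1 hr LTP group.

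The profiles of Ier3, Ier5 and Ier5l ran together and that of Ier2 less so. Over the 11 fitted libraries, Pearson's r of log2 CPM was 0.93 for Ier3 and Ier5, 0.90 for Ier5 and Ier5l and 0.85 for Ier3 and Ier5l. With Ier2 it was 0.64 for Ier3, 0.46 for Ier5 and 0.31 for Ier5l. These libraries share the 4 groups and the difference between the time points, so the values describe profiles and are given without a test.

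Among 14191 other genes with at least 1 CPM on average, the profiles most like that of Ier2 were those of Klf2, a Kruppel-like transcription factor (r = 0.969), the microRNA locus Mir132 (0.967) and Irf2bp2, a transcriptional corepressor (0.965). Counts at Mir132 do not measure the mature microRNA, and reads of its host transcript were not separated. Nearest to Ier3 were Bcl2l11, which encodes the cell death protein Bim (r = 0.992), Lmna, which encodes the nuclear lamins A and C (0.986), and Tnfaip3, which encodes the NF-kB inhibitor A20 (0.985). Nearest to Ier5 were Slc26a11 (0.984), Pabpn1, a nuclear poly(A) binding protein (0.98), and Coq8b (0.976), and nearest to Ier5l were Ints5, an Integrator subunit (0.98), Pkig, an inhibitor of protein kinase A (0.977), and Wdr91 (0.975). With all 12 libraries the neighbours of Ier5 fell to 0.906, 0.95 and 0.847, Irf2bp2 fell to 0.896 and Lmna to 0.964, and these were then no longer among the 3 nearest, so that their place rested on leaving out the set-aside control.

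A list of 49 other early genes, inducible by growth factors, serum or neuronal activity, gives the setting. The list, like those further below, was put together with earlier results of these data known. Its counts and ranks are therefore a description and no test. At 1 hr 37 of the 49 were called higher and 1 lower (Klf10, log2 -0.36), against 0.778% and 0.0113% of all genes. The median log2 fold change of the list was 0.61 beside -0.001 over all genes. The smallest p belonged to Egr2 (log2 2.47, SE 0.0863), Btg2, an antiproliferative factor (2.66, SE 0.0935), and Fos (1.97, SE 0.0773). Ranked by log2 fold change among these 53 genes, Ier2 was number 13, while Ier3, Ier5 and Ier5l were 42, 46 and 47. At 3 hr 32 of the 49 were called higher and 1 lower (Klf10, log2 -0.53), against 5.07% and 1.53% of all genes, with a median of 0.52. The count fell to 19 without 3 hr control replicate 1 and to 20 without either of the other 3 hr controls. Btg2 (1.35, SE 0.0605), Arc (1.30, SE 0.0594), which the choice of slices had used, and Ccn1, a matricellular protein (1.82, SE 0.101), had the smallest p. The Ier genes then stood at 15, 40, 47 and 52 of 53.

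Between the controls 23 of the 49 early genes were called higher and 2 lower (Ccn1, -0.71, and Ccn2, -0.57) at 3 hr, against 16.1% and 16.8% of all genes, with a median of 0.38 beside -0.02 over all genes, and the count higher was 14 with the offset for GC content and length. Without the offset, early genes with large differences were Egr4 (1.77), Dusp2 (1.64), Csrnp1 (1.12), Gadd45b (1.07), Nfkbia (0.96) and Tnfaip3 (0.93), which were named after their values were seen. The LTP effects at 1 hr and the controls share the 1 hr control libraries.

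**Figure D3:**
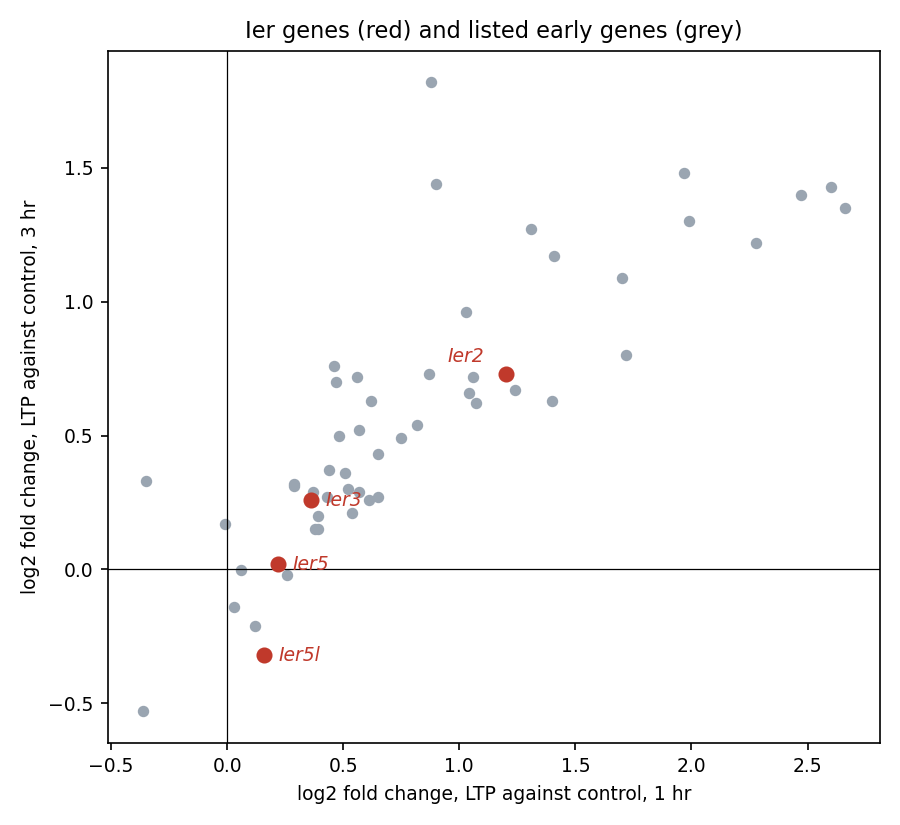
Log2 fold change of LTP against control at 1 hr (horizontal) and at 3 hr (vertical) for the 4 Ier genes (red, named) and 49 other early genes (grey), from fits that share no library. Ier2 lies among the induced genes at 1.2 and 0.73, while Ier3, Ier5 and Ier5l lie near the origin, Ier5l below 0 at 3 hr.

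Other genes that act around the Ier proteins were counted against the shares of all genes called, 0.778% higher and 0.0113% lower at 1 hr, 5.07% and 1.53% at 3 hr, and 16.1% and 16.8% between the controls. Of 17 transcription factors known to act upstream of early genes (SRF, its partners, the CREB and CRTC families and NF-kB), 0 were called at 1 hr by edgeR (3 at an unadjusted p under 0.05). At 3 hr 2 were called higher, Nfkb1, which encodes an NF-kB subunit precursor (log2 0.75, SE 0.0564, edgeR adjusted p = 0.000651), and Crem, a CREB family member (0.57, SE 0.0988, adjusted p = 0.0216), of which Crem was lost without 3 hr control replicate 2 (adjusted p = 0.124). Between the controls 9 were higher at 3 hr and 1, Creb1, lower (-0.37), led by the NF-kB subunit genes Nfkb2 (1.16) and Relb (1.03), with a list median of 0.36.

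The counts of the remaining lists, of 0 or 1 gene each with LTP, are given as a description. Of 14 PP2A subunit genes 0 were called at 1 hr by edgeR (0 at an unadjusted p under 0.05) and 1, Ppp2r5e, at 3 hr (log2 0.31, SE 0.0652, edgeR adjusted p = 0.04). Leaving out any library but 3 hr LTP replicate 2 ended that call, with log2 fold changes of 0.25 to 0.33 and adjusted p from 0.0575 to 0.202, the first of them with a fold change under 1.2. The list medians were -0.04 at both times, and in the controls Ppp2r1b was higher (0.55) and Ppp2r2d (-0.30) and Ppp2r5c (-0.35) lower at 3 hr. Of 16 genes for HSF1 and heat shock proteins, Dnajb1, a cochaperone of HSP70, was the 1 called higher at 1 hr (log2 0.55, SE 0.0755, adjusted p = 0.00143) and at 3 hr (0.35, SE 0.0704, adjusted p = 0.0338). Its 3 hr call was lost without 3 hr control replicate 1 (adjusted p = 0.154) or 2 (0.195). Of these 16 genes 5 were higher between the controls (Hspa1b 0.59, Hspa1a 0.48, Hspb1 0.43, Hspa5 0.33, Dnajb1 0.27) and 3 lower (Chordc1 -0.55, Hsp90aa1 -0.33, Hspa8 -0.27). Reads of the near-identical Hspa1a and Hspa1b may be split between them. Of 14 genes of the ERK module 0 were called at 1 hr and 0 at 3 hr by edgeR (0 and 4 at an unadjusted p under 0.05), and between the controls Map2k2 (0.57), Rps6ka2 (0.36) and Map2k1 (0.26) were higher at 3 hr.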

How the data were processed

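The deposited tables, 1 per time point, hold raw counts per gene. Per the study's methods, the authors prepared stranded, ribosomal RNA-depleted libraries, aligned reads with STAR to GRCm38/mm10 and counted them with Bioconductor packages. Whether counting used strand is not stated. Of 41091 IDs, 40217 matched GENCODE M21 and 874 did not, and the latter stayed in library sizes and tests.

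Genes passing filterByExpr were TMM normalized and tested with edgeR 4.0.16 (quasi-likelihood F test, R 4.3.3), with Benjamini-Hochberg adjustment over all genes. The time points were fitted separately, with 5 libraries at 1 hr (1 hr control replicate 2 set aside) and 6 at 3 hr. The change of effect, which needed an adjusted p alone, and comparisons across times used 1 model of 11 libraries. Log2 CPM for profiles had a prior count of 2. DESeq2 1.42.0, limma-voom (limma 3.58.1), other scalings and filters, offsets for GC content and length, an animal block and leaving out libraries were alternatives. The fits were tested on simulated data.

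LTP and control libraries of the same number come from 1 animal, per the labels and methods. Deviations of paired libraries from their group means correlated weakly, by -0.0169, -0.134 and 0.0741 for the 1 hr animals and by 0.0297, -0.0384 and 0.194 for those of 3 hr.

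The members and gene lists were chosen with earlier results of these data known. Genes named were the members, the 3 most similar profiles of each, and from each list the 3 called genes with the smallest p at 1 hr and 3 hr. Others were named after their values were seen. A planned comparison of protein sequences was not run.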

Additional observations from a re-analysis of the deposited data

Results flagged for a closer look

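Among the genes set beside the members, 4 had LTP effects that differed between 1 hr and 3 hr by the test of the difference itself (edgeR). The effect on Btg2 was smaller at 3 hr (log2 -1.31, adjusted p = 0.00022), and this call held in all 23 alternatives. The effect on Arc was also smaller (-0.68, adjusted p = 0.031), but the call was kept in 6 of 11 omissions of a single library, being lost without 1 hr control replicate 3 (-0.61), 1 hr LTP replicate 1 (-0.62), 3 hr control replicate 2 (-0.68) or 3 (-0.70), or 3 hr LTP replicate 1 (-0.68), and the value was -0.44, not called, with the set-aside control included, and -0.47, not called, with that control in the animal block. For Egr2 (-1.06, adjusted p = 0.0794) the call was kept in 3 of 11 omissions, those of 3 hr control replicate 1 and 3 hr LTP replicates 2 and 3, with values from -1.24 to -0.96 over the 11, and was lost with limma-voom (-1.06, adjusted p = 0.116). The effect on Nfkb1 was larger at 3 hr (0.69, adjusted p = 0.0166), a call lost without 1 hr control replicate 3 (0.64, adjusted p = 0.168). None of the 4 Ier genes differed in this test.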

How the results depend on the processing

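Ier2 at 1 hr and the higher level of all 4 members in the 3 hr controls kept their calls under every alternative run. Ier3 at 1 hr gained a call with DESeq2 and without the filter (log2 0.36 each), with the replicate block (0.36) and with the block plus GC and length offsets (0.30), and lay between 0.33 and 0.39 when single libraries were left out. Ier2 at 3 hr ranged from 0.58 to 0.84 over these omissions. Without the filter the SE of Ier3 at 1 hr was 0.107, above the 0.089 of the main fit. The edgeR adjusted p at 1 hr fell for other genes too. Without the filter that of Btg2 was 4.56e-208 and in the main fit 5.44e-10. With the block plus offsets that of Ier2 was 1.13e-30 and in the main fit 0.000814. The replicate block, run for LTP against control at each time and for the change of effect, changed no member's call there but that of Ier3. Ier5l at 1 hr turned to -0.05 with the set-aside control, and to -0.04 with that control in the block, and Ier5 at 3 hr ranged from -0.02 to 0.05 over single omissions. The change of the Ier3 effect was 0.002 in the block with the set-aside control. Between the LTP slices, Ier2 gained a call without the filter (0.29) and ranged from 0.13 to 0.46 over omissions, and Ier5l lost its call with GC and length offsets (0.14). The causes were not tested.

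Counts over all genes moved more. The 140 genes called at 1 hr became 347 without the filter, 309 with the block plus offsets and 69 to 344 over omissions. The 1155 at 3 hr became 228 to 2170 over omissions. The 11 of the change of effect became 80 with DESeq2, 102 without the filter, 23 with the offsets, 20 with the block plus offsets, 7 with the block and the set-aside control, and 1 to 67 over omissions. Early genes called higher in the LTP slices at 3 hr against 1 hr fell from 20 to 10 with the offsets. With 2 or 3 libraries a group, effects near the size of the Ier3 difference at 1 hr lie at the limit of what was called.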
